A study of Mus musculus with 40 samples.

Results

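The 6 genes described here are Apobec3 and the Schlafen genes Slfn1, Slfn2, Slfn5, Slfn8 and Slfn9 of the mouse, taken by symbol from a gene count table of 35976 symbols. Apobec3 and Slfn9 were chosen because all the mutant groups of c-kit+ marrow cells differed from wild type in these same data, and the other members because they belong to the same family as Slfn9. The c-kit+ differences of Apobec3 and Slfn9 from wild type are therefore given as a description, with no test.

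The gene table gave 32 RNA-seq libraries of marrow cells whose columns could be matched to a label. The c-kit+ marrow cells came from Dnmt3a/Sting double knockout (DKO, 3 libraries), Dnmt3a knockout (2), Sting knockout (2) and wild-type (WT, 2) mice. The sorted cells were Dnmt3a knockout and WT long-term haematopoietic stem cells (LT-HSC, 4 and 4 libraries), common and granulocyte-macrophage progenitors sorted as a single population (CMP/GMP, 4 and 4) and megakaryocyte-erythroid progenitors (MEP, 4 and 3). The design text describes the Dnmt3a mutants as carrying floxed Dnmt3a alleles and Mx1-Cre, a Cre recombinase driven by an interferon-responsive promoter, and asks what factors intrinsic to such cells contribute to blood disease. The sources used here give no strain background, age, sex or scheme of Cre induction. No animals are named in the labels, so a p-value reflects library-to-library spread, which may be technical.

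APOBEC3 proteins are cytidine deaminases that are packaged into retroviral particles and mutate or block the synthesis of the viral DNA. Mice have a single Apobec3 gene, known for restricting murine leukaemia and mammary tumour viruses, where primates have several. Schlafen genes form a rodent cluster of short forms, such as Slfn1 and Slfn2, and long forms with a helicase-like region, such as Slfn5, Slfn8, Slfn9 and Slfn14. Several are induced by type I interferon, and Slfn2 is needed in mice for the quiescence of T cells and monocytes. Dnmt3a is a de novo DNA methyltransferase, and Sting (Tmem173) is the adaptor through which cytosolic DNA sensing by cGAS drives interferon production.

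The promoters are shown because 4 of the 6 members hold the core of the interferon-stimulated response element, the letters GAAA, any 2 bases and GAAA again on either strand, in the window from 250 bases before to 50 after the annotated start. The capitals mark that match, which reads as TTTC, 2 bases and TTTC where it lies on the reverse strand. Sequences and positions are those of RefSeq on GRCm38.p6, and where the table holds more than 1 start for a gene the first is shown. The window of the second Apobec3 start held no match, and that of the second Slfn8 start held the same match at position -136.

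Apobec3, chr15:79892158-79892457, + strand: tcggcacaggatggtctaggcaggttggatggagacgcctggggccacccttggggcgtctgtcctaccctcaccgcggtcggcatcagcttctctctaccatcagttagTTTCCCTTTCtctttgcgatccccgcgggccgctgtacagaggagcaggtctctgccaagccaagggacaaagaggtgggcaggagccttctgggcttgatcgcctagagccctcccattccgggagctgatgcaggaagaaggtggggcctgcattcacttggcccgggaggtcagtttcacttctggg

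Slfn5, chr11:82951852-82952151, + strand: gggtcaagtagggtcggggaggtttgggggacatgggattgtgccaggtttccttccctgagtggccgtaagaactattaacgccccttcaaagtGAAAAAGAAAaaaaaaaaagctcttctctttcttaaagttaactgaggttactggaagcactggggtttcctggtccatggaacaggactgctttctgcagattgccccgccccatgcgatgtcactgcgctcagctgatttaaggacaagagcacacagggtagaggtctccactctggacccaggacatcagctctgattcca

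Slfn8, chr11:83020761-83021060, - strand: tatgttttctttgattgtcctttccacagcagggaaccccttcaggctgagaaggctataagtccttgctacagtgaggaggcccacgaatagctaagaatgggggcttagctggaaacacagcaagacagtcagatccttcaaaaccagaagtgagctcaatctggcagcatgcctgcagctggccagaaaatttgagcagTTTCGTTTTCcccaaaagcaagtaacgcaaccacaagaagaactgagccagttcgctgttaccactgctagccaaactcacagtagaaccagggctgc

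Slfn9, chr11:82991781-82992080, - strand: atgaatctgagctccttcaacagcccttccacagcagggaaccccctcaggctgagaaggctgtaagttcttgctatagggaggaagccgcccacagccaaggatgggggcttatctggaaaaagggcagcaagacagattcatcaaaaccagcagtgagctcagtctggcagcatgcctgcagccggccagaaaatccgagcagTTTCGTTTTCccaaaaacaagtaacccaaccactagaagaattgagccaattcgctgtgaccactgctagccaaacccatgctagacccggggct

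The match began at position -140 from the start in Apobec3, -155 in Slfn5, -48 in Slfn8 and -45 in Slfn9. The windows of Slfn1 and Slfn2 held no such letters, and neither did those of Slfn3, Slfn4 and Slfn14. Of 32851 RefSeq promoter windows of the same length, 3.44% held the motif. The gamma-activated site TTCNNNGAA, present in 8.30% of windows, was found in none of the 6 members, so no match overlapped another. The Slfn8 and Slfn9 windows were 80.5% identical, whereas every other pair of members ranged between 41.3% and 49.4%. The Apobec3 window shown held 13 CpG dinucleotides, against a median of 7 over all windows. The window of the second Apobec3 start held 4, and those of the Schlafen members held 2 to 6.

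Apobec3 lies on chromosome 15 (79892058 to 79918218, + strand). The Schlafen members share chromosome 11, where 9 Schlafen genes lie within 335 kb in the order Slfn5, Slfn9, Slfn8, Slfn10-ps, Slfn2, Slfn1, Slfn4, Slfn3 and Slfn14. Paralogous sequence limits how reads can be assigned in that cluster. Of the 50-base stretches of the longest annotated transcript of any type, 15.4% in Slfn8 and 11.9% in Slfn9 also occurred in other genes. Slfn10-ps and each other were among those genes, so the levels of Slfn8 and Slfn9 are uncertain. The share was 11.8% in Slfn5, led by its antisense partner Slfn5os, 4.27% in Slfn2, 1.66% in Apobec3 and 0.606% in Slfn1.

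Reads assigned to genes per library, with M for 1e+06 reads, ranged between 27.4 M and 40.0 M for c-kit+ cells, 16.9 M and 45.8 M for LT-HSC, 33.2 M and 47.7 M for CMP/GMP and 3.44 M and 36.0 M for MEP. The c-kit+ labels were matched by Tmem173, at 9.72 to 11.5 CPM (read counts scaled to 1e+06 per library) in the 5 Sting-null libraries and 43.5 to 64.5 CPM in the other 4. Dnmt3a counts cover the whole gene, including what lies outside the floxed part, and were 41.9 to 50.9 CPM in the 5 Dnmt3a-null c-kit+ libraries and 78.5 to 97.8 CPM in the other 4. Among sorted cells, the LT-HSC libraries labelled knockout 2 and knockout 3 had 77.3 and 115 CPM of Dnmt3a and the library labelled MEP knockout 2 had 41.3 CPM, all within the range of WT libraries of their population. LT-HSC knockout 2 and LT-HSC WT 1 stood apart from the libraries of their own group (Pearson r 0.63 to 0.68), as did MEP knockout 1 from the other 3 knockout libraries (0.66 to 0.72), while it correlated at 0.90 to 0.91 with the 3 WT MEP libraries. Among c-kit+ libraries DKO 1 was closer to both Dnmt3a knockout libraries (0.99) than to DKO 2 and 3 (0.98), and CMP/GMP WT 2 correlated at 0.99 with WT 4. Both Dnmt3a knockout c-kit+ libraries and DKO 1 held over 100 CPM of Xist, the transcript of the inactive X chromosome in females, and the other 6 c-kit+ libraries did not. Sex was therefore not balanced between Dnmt3a knockout and any other c-kit+ group, nor between DKO and Sting knockout or WT.

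Apobec3 was high in all 3 mutant genotypes of c-kit+ cells and low in WT, which is the pattern it was chosen for. Its level, in CPM after TMM scaling here and below, was 193, 192 and 152 in DKO, 234 and 215 in Dnmt3a knockout, 230 and 224 in Sting knockout, and 67.3 and 68.5 in WT. All 7 mutant libraries lay above both WT libraries by a wide margin, and the 3 DKO libraries lay below the other 4 mutant libraries. The means were 179 ± 23.5 CPM (SD, n = 3) in DKO, 224 ± 13.1 (n = 2) in Dnmt3a knockout, 227 ± 4.37 (n = 2) in Sting knockout and 67.9 ± 0.833 (n = 2) in WT. The log2 fold changes against WT, which chose the gene, were 1.40 in DKO, 1.72 in Dnmt3a knockout and 1.74 in Sting knockout. With a term for Xist, the Dnmt3a knockout value was 1.56 and the other 2 were 1.34 (DKO) and 1.74 (Sting knockout). Only the DKO group held libraries of both kinds. That term therefore rests on DKO 1 against DKO 2 and 3, and it cannot separate sex from other differences of DKO 1.

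Slfn9, a long-form Schlafen, was also higher in every mutant library than in WT, with its highest level where Dnmt3a was lost and Sting was intact. It stood at 61.4, 70.1 and 73.3 CPM in DKO, 101 and 93.1 in Dnmt3a knockout, 66.1 and 79.9 in Sting knockout, and 48.1 and 43.9 in WT. The 2 Sting-null genotypes overlapped each other and lay between Dnmt3a knockout and WT. Its log2 fold changes against WT were 0.57 in DKO, 1.08 in Dnmt3a knockout and 0.67 in Sting knockout, again as a description. With the Xist term, which rests on the same DKO libraries, the Dnmt3a knockout value was 1.30.

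Slfn8, the neighbour of Slfn9 with the most similar promoter, was highest in Dnmt3a knockout and uneven in WT. It had 13.2, 9.43 and 12.4 CPM in DKO, 39.3 and 32.2 in Dnmt3a knockout, 14.2 and 12.4 in Sting knockout, and 18.9 and 3.10 in WT. Both Dnmt3a knockout libraries exceeded every other c-kit+ library, while WT 1 lay above and WT 2 below all 5 Sting-null libraries. How many of all genes were highest in both Dnmt3a knockout libraries was not computed. The log2 fold change of Dnmt3a knockout against WT was 1.72 ± 0.58 (SE), which did not pass edgeR's quasi-likelihood test (Benjamini-Hochberg adjusted p = 0.204). Without WT 1 it was 3.52 (adjusted p = 0.00663), and without WT 2 it was 0.92, so the spread between the 2 WT libraries decided the value.

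Slfn5, the long form at one end of the cluster, was the member that was low in both Sting-null genotypes. It had 8.44, 3.63 and 7.23 CPM in DKO, 20.3 and 16.5 in Dnmt3a knockout, 10.5 and 5.45 in Sting knockout, and 17.7 and 18.2 in WT. All 5 Sting-null libraries lay below all 4 libraries with intact Sting, and Dnmt3a knockout overlapped WT. No share of all genes divided in this way was computed. The log2 fold change against WT was -1.47 ± 0.33 in DKO (edgeR adjusted p = 0.0680), 0.04 ± 0.36 in Dnmt3a knockout (0.971) and -1.17 ± 0.37 in Sting knockout (0.240). DESeq2 called Slfn5 lower than WT in DKO (adjusted p = 0.000189) and in Sting knockout (0.0243), so its call depended on the test.

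The short forms Slfn2 and Slfn1 differed widely between the 2 WT libraries. Slfn2 had 54.9, 82.9 and 52.3 CPM in DKO, 59.3 and 58.1 in Dnmt3a knockout, 46.5 and 52.4 in Sting knockout, and 46.3 and 19.4 in WT. Every mutant library was above both WT libraries, one of them by only a small margin, and the share of all genes with such a division was not computed. The log2 fold change of Slfn2 against WT was 0.95 ± 0.32 in DKO (edgeR adjusted p = 0.171), 0.84 ± 0.34 in Dnmt3a knockout (0.267) and 0.59 ± 0.34 in Sting knockout (0.551). Slfn1 had 13.4, 18.6 and 18.1 CPM in DKO, 10.9 and 12.7 in Dnmt3a knockout, 19.4 and 15.7 in Sting knockout, and 19.2 and 7.88 in WT, where the 2 WT libraries spanned almost the whole range. Its log2 fold changes against WT lay between -0.20 and 0.38 (adjusted p 0.673 to 0.824).

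**Figure D1:**
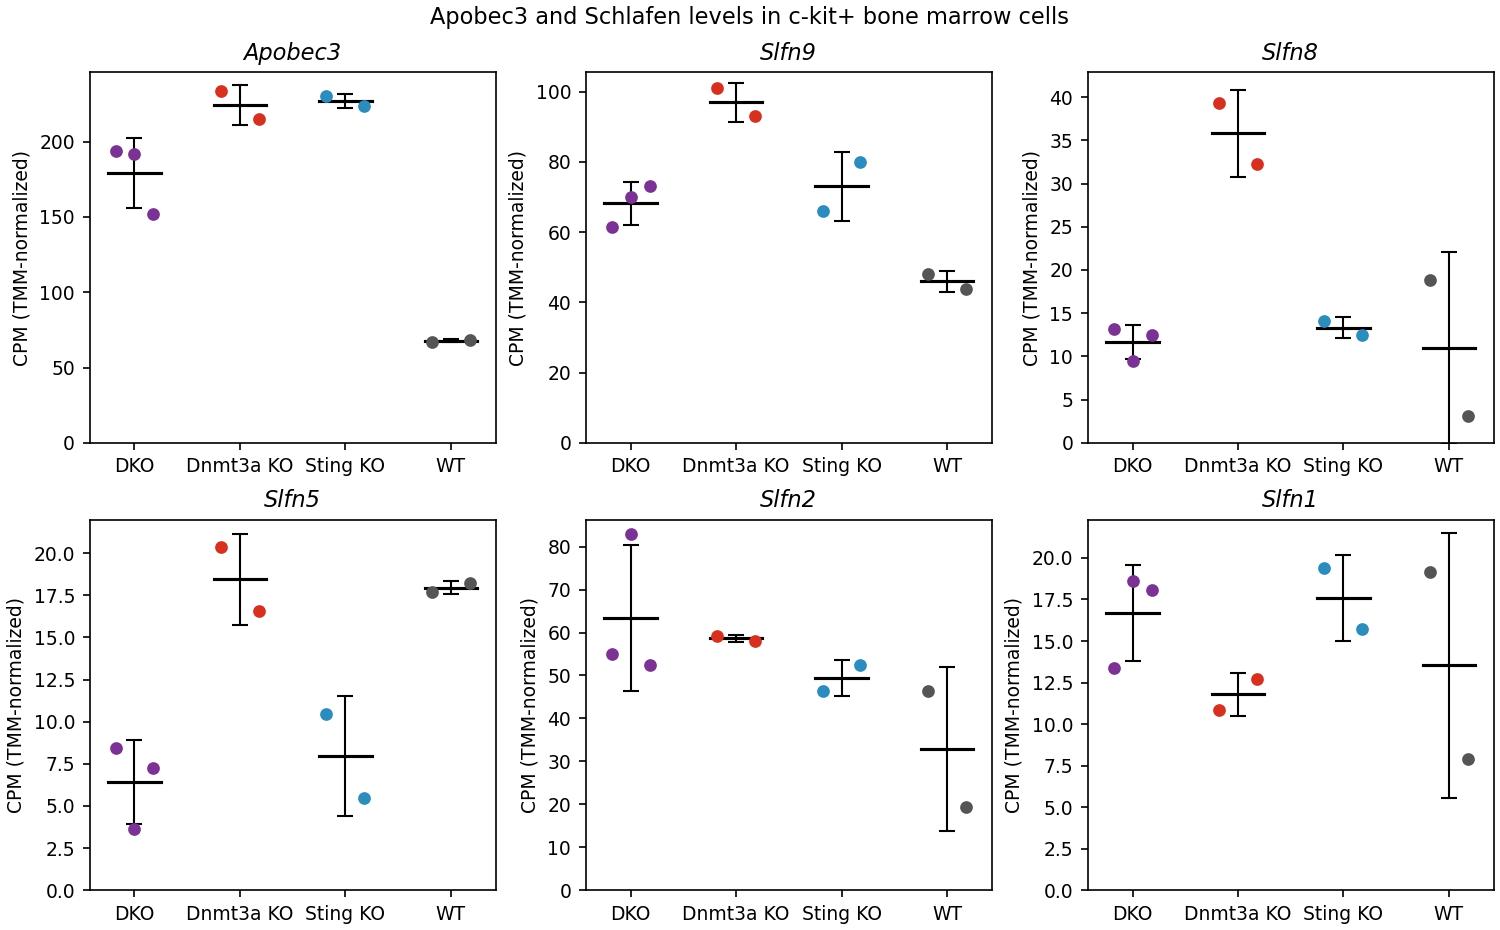
TMM-normalised CPM of each member in c-kit+ marrow cells, with 1 point per library, a line at the group mean and bars of 1 SD (n = 3 DKO, 2 in each other group). Apobec3 and Slfn9 are above WT in all 7 mutant libraries, Slfn8 is highest in the 2 Dnmt3a knockout libraries, and Slfn5 is low in the 5 Sting-null libraries.

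Of the 4 members with a test against WT, 0 passed in Dnmt3a knockout by edgeR, where 0.568% of the 16026 genes tested were called. The unadjusted p was under 0.05 for 2 of them, beside 16.3% of all genes, and DESeq2 called 0, beside 4.11%. In Sting knockout 0 of 4 passed, beside 0.774% of all genes, with 1 at an unadjusted p under 0.05 (11.5% of all genes) and 1 by DESeq2 (2.83%). In DKO 0 of 4 passed, beside 1.26% of all genes, with 2 at an unadjusted p under 0.05 (16.7% of all genes) and 1 by DESeq2 (5.79%). Without the filter on low counts, edgeR called Slfn2 in all 3 genotypes (adjusted p 2.67e-06 to 0.0212), Slfn5 in the 2 Sting-null ones and Slfn8 in Dnmt3a knockout. That setting called 5.17% of all genes in Dnmt3a knockout, 3.12% in Sting knockout and 5.76% in DKO.

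The direct comparison of DKO with Dnmt3a knockout sets cells without Sting beside cells with it, where both lack Dnmt3a. Neither Apobec3 nor Slfn9 was chosen on this difference. Their values in these same libraries entered the choice, however, so their p-values and their part in the counts below describe selected genes. Xist was over 100 CPM in both Dnmt3a knockout libraries but only in DKO 1, so sex was not balanced either. Slfn5, Slfn8, Slfn9 and Apobec3 were lower and Slfn1 was higher in every DKO library than in both Dnmt3a knockout libraries. The groups of 3 and 2 libraries did not overlap for 5 of the 6 members, where the same held for 25.3% of all genes. The log2 fold change was -1.61 ± 0.51 for Slfn8 (edgeR adjusted p = 0.612), -1.51 ± 0.33 for Slfn5 (0.320), -0.51 ± 0.11 for Slfn9 (0.279) and -0.33 ± 0.10 for Apobec3 (0.612). Slfn1 was 0.50 ± 0.32 and Slfn2 0.11 ± 0.31 on the same scale. Of the 6 members 0 passed, beside 0.156% of all genes, and 4 had an unadjusted p under 0.05, against 7.91% of all genes. DESeq2 called 2 of them, Slfn5 (adjusted p = 0.000440) and Slfn9 (0.00980), beside 0.63% of all genes. Over 15 alternatives Slfn8 passed in 3, Slfn5 and Slfn9 in 2 each, Apobec3 in 1, and Slfn1 and Slfn2 in 0.

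Against Sting knockout, DKO cells differed little in any Schlafen member and had somewhat less Apobec3. The same limit on the p-values of Apobec3 and Slfn9 holds here. The log2 fold change of Apobec3 was -0.34 ± 0.10 (edgeR adjusted p = 0.374), and those of the Schlafen members lay between -0.30 and 0.36. Here 0 of 6 members passed, beside 0% of all genes, with 1 member (Apobec3) at an unadjusted p under 0.05, against 11.6% of all genes, and DESeq2 called 0, beside 0.786%. The interaction contrast, the Dnmt3a effect without Sting minus that with Sting, was -1.90 ± 0.77 for Slfn8 (adjusted p = 0.621) and -3.70 (0.0136) without WT 1. It was -2.07 for Apobec3 and -1.17 for Slfn9 as a description, since WT enters it. Of the 4 members with a test 0 passed, beside 0.15% of all genes, with 1 at an unadjusted p under 0.05 (7.56% of all genes) and 0 by DESeq2 (1.24%).

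Marker genes of other marrow cells also differed between the c-kit+ groups. The summed level of 6 late neutrophil genes was 9783 to 29549 CPM in DKO, 13358 to 15074 in Dnmt3a knockout, 10526 to 10683 in Sting knockout, and 9848 and 5601 in WT 1 and WT 2. All 6 were detected in every library. WT 2 was thus the lowest c-kit+ library for these genes, as it was for Slfn1, Slfn2 and Slfn8. The sum of 7 monocyte and macrophage genes was 1146 to 1351 CPM in DKO, 1111 to 1165 in Dnmt3a knockout, 872 to 909 in Sting knockout, and 1458 to 1616 in WT. It was highest where Apobec3 was lowest. Of these 7 genes edgeR called 2 lower than WT in Dnmt3a knockout, 4 in Sting knockout and 4 in DKO. The shares of all genes called were 0.568%, 0.774% and 1.26% in that order. Single genes above WT numbered 1 in Dnmt3a knockout, 0 in Sting knockout and 2 in DKO. The sums of MEP and CMP/GMP genes divided the libraries as Apobec3 and Slfn9 did, with all 6 of each list detected. Single genes did not all follow the sums in Dnmt3a knockout, where 4 MEP genes were above WT and 2 below. Of the CMP/GMP genes 3 were above WT there and 3 below. In DKO and in Sting knockout all 6 MEP genes were below WT and all 6 CMP/GMP genes above, and edgeR called 1 of the MEP genes, in DKO. The MEP sum was 631 to 992 CPM over the 7 mutant libraries and 1222 to 1645 CPM in WT, and the CMP/GMP sum was 14932 to 20935 CPM over the mutant libraries and 13020 to 13524 CPM in WT. The sum of 7 T and NK cell genes, all detected, was also lower in WT (176 to 178 CPM) than over the mutant libraries (185 to 245 CPM). Of the 6 tested, 5 were above WT in Dnmt3a knockout, where edgeR called 1 of them, 4 in Sting knockout and 5 in DKO. Sorted CMP/GMP libraries reached 382 to 631 CPM on the same list, with 2 to 4 of the 7 genes detected and Cd3e at 0 in each. That sum is therefore not particular to T and NK cells. B cell sums overlapped WT in each genotype, and stem cell sums did so except in Sting knockout. The part of these cells in the members' levels was not tested, and fewer cells of a type cannot be told apart from less RNA per cell.

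The rest of the Schlafen cluster was measured alongside the members. Slfn4 was abundant in c-kit+ cells, at 99.8 to 171 CPM in DKO, 117 in both Dnmt3a knockout libraries, 138 and 164 in Sting knockout, and 134 and 78.9 in WT. It overlapped WT in DKO and Dnmt3a knockout, and both Sting knockout libraries lay just above WT 1. Slfn3 ranged between 19.2 and 25.3 CPM over the 9 libraries. Slfn14, at the far end of the cluster, had a log2 fold change of -2.15 ± 0.85 in Dnmt3a knockout against WT (edgeR adjusted p = 0.258). edgeR called 0 of the 4 other genes of the cluster in the 6 comparisons of c-kit+ cells (adjusted p 0.202 to 0.964), beside 0% to 1.26% of all genes. Of the 24 values 5 had an unadjusted p under 0.05, beside 7.56% to 16.7% of all genes by comparison. These values come from 4 genes in comparisons that share libraries. Slfnl1, listed with them but outside the cluster, did not pass the low-count filter. The 6 genes flanking the cluster gave log2 fold changes of -1.23 to 0.33 against WT, none of which was called.

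**Figure D2:**
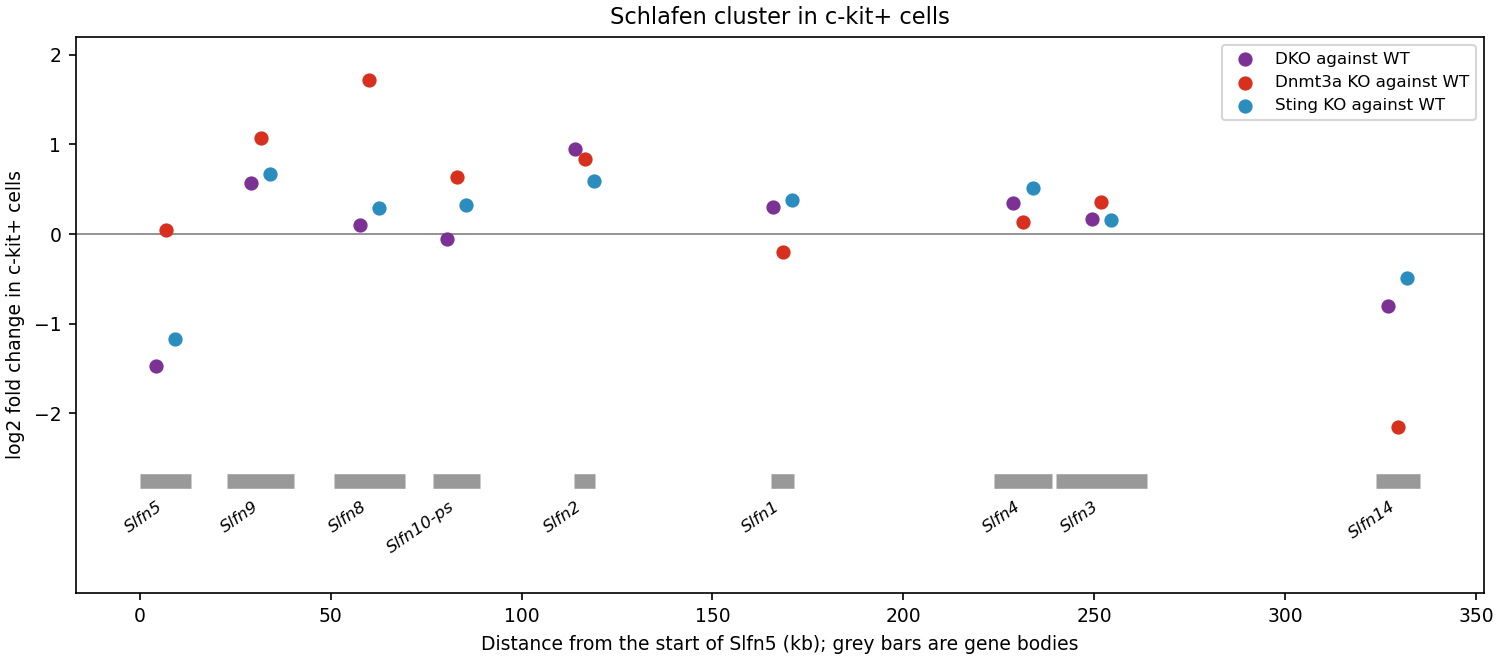
Log2 fold change against WT in c-kit+ cells for each of the 9 Schlafen genes, plotted along the chromosome 11 cluster by distance from the start of Slfn5 in kb, with gene bodies in grey. Slfn9 is above 0 in all 3 genotypes, Slfn8 reaches 1.72 in Dnmt3a knockout, Slfn5 is at -1.47 in DKO and -1.17 in Sting knockout, and edgeR called no gene for which a test was made.

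Of the 6 genes nearest to Apobec3, D730005E14Rik and Rpl3 were higher than WT in the same c-kit+ contrasts, and the other 4 were not called. D730005E14Rik, a transcript that overlaps the start of Apobec3 on the same strand (79889532 to 79893138) and covers the promoter window printed above, had 4.37, 2.78 and 1.19 CPM in DKO, 5.17 and 4.27 in Dnmt3a knockout, 2.36 and 3.97 in Sting knockout, and 0.188 and 0.149 in WT. Each WT library held 6 reads of it, and each mutant library held between 44 and 190. Its log2 fold change against WT was 4.03 in DKO, 4.80 in Dnmt3a knockout and 4.22 in Sting knockout, given without a test because reads in the overlap could belong to either gene. Rpl3, a ribosomal protein gene further along the chromosome (80077781 to 80083406), averaged 1377 ± 118 CPM in DKO (n = 3), 1413 ± 40.7 in Dnmt3a knockout (n = 2), 1557 ± 67.5 in Sting knockout (n = 2) and 1001 ± 45.2 in WT (n = 2). edgeR called it higher in all 3, with log2 fold changes of 0.46 ± 0.08 (adjusted p = 0.0346), 0.50 ± 0.09 (0.0476) and 0.64 ± 0.09 (0.0123) in that order. Cbx7, which overlaps the end of Apobec3 on the other strand, had 0.81 ± 0.35, 1.04 ± 0.37 and 0.65 ± 0.37 and did not pass (adjusted p 0.216 to 0.554). Cbx6, Dnal4 and Pdgfb were not called either. In sorted cells D730005E14Rik did not follow that division, at 29.8 CPM in MEP knockout 2 and 0 CPM in MEP knockout 3 and 4, against 1.43 to 4.49 CPM in WT MEP.

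**Figure D3:**
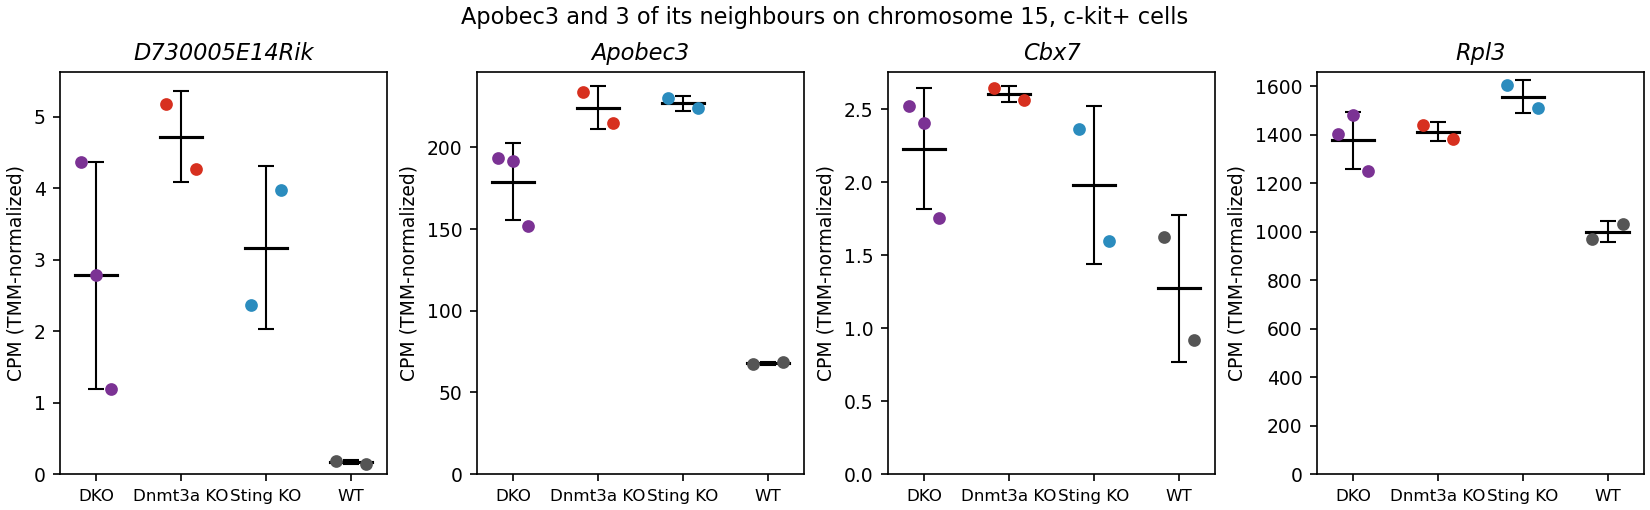
TMM-normalised CPM of Apobec3 and 3 neighbouring genes in c-kit+ cells, with 1 point per library, the group mean and bars of 1 SD. D730005E14Rik lies between 1.19 and 5.17 CPM in the mutant libraries and under 0.19 CPM in WT, Apobec3 and Rpl3 are also lower in both WT libraries than in any mutant library, and Cbx7 is lowest in WT 2 but overlaps the mutants in WT 1.

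Other restriction factors were read as a background for the members. Of 27 listed genes 25 were tested in c-kit+ cells. Adar, an RNA-editing deaminase that marks self double-stranded RNA, was higher in Dnmt3a knockout than in WT (log2 fold change 0.71 ± 0.09, edgeR adjusted p = 0.0118), and 24 did not pass. The median of the list was 0.29 on the log2 scale, with 22 of 25 above 0, where the median of all genes was 0.00. In DKO against Dnmt3a knockout 2 were lower, Trim30a (-0.84 ± 0.10, adjusted p = 0.0185), a tripartite motif protein, and Adar (-0.63 ± 0.08, 0.0212), with a list median of -0.33 against 0.01 over all genes. None was called in Sting knockout or DKO against WT, where the list medians were -0.10 and -0.09. Of 15 interferon-stimulated genes, 6 were higher in Dnmt3a knockout than in WT, where 0.568% of all genes were called in either direction. Among the 6 were Oas3, a sensor of double-stranded RNA (2.40 ± 0.26, edgeR adjusted p = 0.00685), and Irf7, a driver of interferon transcription (1.55 ± 0.24, 0.0270). In DKO against Dnmt3a knockout 8 were lower, beside 0.156% of all genes called. Irf7 was among them (-2.40 ± 0.22, edgeR adjusted p = 0.00668), and the list median was -1.86. Against WT, 0 were called in Sting knockout, beside 0.774% of all genes, and Ifit3 alone was lower in DKO (-2.40 ± 0.42, 0.0332), beside 1.26%. Sex was not balanced between Dnmt3a knockout and WT, nor between Dnmt3a knockout and DKO. With the Xist term, edgeR called 0 of all genes in Dnmt3a knockout against WT and 1 in DKO against Dnmt3a knockout. That term rests on DKO 1 against DKO 2 and 3, so the part of sex in these calls cannot be told apart. These lists were read with earlier results of these data known.

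Within the AID/APOBEC family, Apobec3 was by far the most abundant member in c-kit+ cells. Apobec1, the editor of apolipoprotein B mRNA, ranged between 17.2 and 29.6 CPM over the 9 libraries, and its log2 fold changes against WT were 0.19 in DKO, 0.45 in Dnmt3a knockout and -0.01 in Sting knockout. Only Apobec1 and Apobec2 of the 4 listed relatives passed the low-count filter, and edgeR called 0 of 2 in each c-kit+ comparison.

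Among sorted cells, Apobec3 was present at similar levels in Dnmt3a knockout and WT LT-HSC and CMP/GMP. It had 273, 183, 180 and 211 CPM in knockout LT-HSC, against 202, 245, 168 and 187 in WT LT-HSC. CMP/GMP gave 236, 235, 186 and 187 CPM in knockout and 180, 205, 152 and 270 in WT. The groups overlapped in both populations, with log2 fold changes of 0.08 ± 0.27 in LT-HSC (edgeR adjusted p = 1.0) and 0.06 ± 0.19 in CMP/GMP (0.957). Each of these 16 libraries was above both WT c-kit+ libraries, as were all 3 WT MEP libraries. These are levels from populations normalised separately, set side by side without a test. Strain is not stated for either set of mice, so strain and population cannot be told apart in that gap, nor strain and genotype in the c-kit+ differences from WT.

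In MEP, Apobec3 was lower in 3 of the 4 knockout libraries than in any WT library. The 4 libraries labelled knockout had 136, 62.5, 57.1 and 64.5 CPM, against 121, 138 and 150 CPM in WT. The log2 fold change was -0.77 ± 0.40 (edgeR adjusted p = 0.436), and it was -1.15 (0.0160) without knockout 1, where 2882 genes were called in place of 0. Slfn9 moved the opposite way in the same libraries, at 2.64, 22.1, 13.3 and 10.3 CPM in knockout and 2.60, 2.10 and 3.66 CPM in WT. Its log2 fold change was 2.11 ± 1.02 (0.414), with only knockout 1 within the WT range. Knockout 3 and 4 were near-identical (r 0.99) but differed beyond sampling noise, and with their reads summed Apobec3 was at -0.63 (0.743) and Slfn9 at 2.15 (0.688).

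Markers moved with these MEP libraries as well. The 6 MEP genes, all detected in every library, summed to 6142, 3035, 4673 and 4370 CPM in knockout 1 to 4, against 7725 to 9992 CPM in WT. Those of CMP/GMP summed to 1189, 2803, 64.4 and 74.3 CPM in knockout, against 68.0 to 498 CPM in WT. The 7 monocyte and macrophage genes, 2 to 5 of them detected, summed to 83.1, 172, 17.5 and 14.8 CPM in knockout, against 0.930 to 7.47 CPM in WT. Among 7 stem cell genes the sums were 144, 106, 24.7 and 21.3 CPM in knockout, against 27.5 to 58.0 CPM in WT, with Fgd5 at 0 in every MEP library. Knockout 2 had the fewest reads of all libraries, and without it Apobec3 was at -0.66 (adjusted p = 0.433) and Slfn9 at 1.65 (0.401). The part of these cells in the MEP values was not tested.

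The remaining Schlafen members varied widely between libraries of one sorted group. Slfn5 had 5.79, 6.38, 3.69 and 3.91 CPM in knockout LT-HSC, against 15.4, 6.87, 7.95 and 11.4 in WT LT-HSC. The groups did not overlap, as for 1.73% of all genes, and the log2 fold change of -1.07 ± 1.01 did not pass (edgeR adjusted p = 1.0). In CMP/GMP Slfn5 had 2.51, 0.383, 0 and 0 CPM in knockout and 3.86, 2.54, 0 and 4.58 in WT, and in MEP 0, 0, 3.09 and 5.44 in knockout and 0.896, 0 and 0.834 in WT. It was at or near 0 in some libraries of each group of CMP/GMP and MEP.

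Slfn2 had 13.8, 37.3, 6.43 and 24.9 CPM in knockout LT-HSC, against 9.06, 86.5, 67.7 and 29.6 in WT LT-HSC. Its log2 fold change was -1.23 ± 0.75 (adjusted p = 1.0), and -2.03 (1.0) without knockout 2 and WT 1. In CMP/GMP it had 1.93, 2.35, 6.06 and 7.44 CPM in knockout and 1.20, 0.979, 5.70 and 0.501 in WT (1.09 ± 0.89, adjusted p = 0.790). Slfn2 was close to absent from MEP, with 15 reads over the 4 knockout libraries, all in knockout 1, and 19 over the 3 WT libraries, so it was not tested there.

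Slfn8 had 12.1, 18.1, 18.5 and 22.7 CPM in knockout LT-HSC, against 0.474, 47.2, 12.2 and 76.4 in WT LT-HSC. The WT libraries spread over far more than the knockout range. In CMP/GMP it had 12.3, 5.61, 18.2 and 11.6 CPM in knockout and 12.1, 32.7, 16.6 and 25.8 in WT (-0.87 ± 0.42, adjusted p = 0.582), and in MEP 0.501, 3.15, 10.1 and 12.1 in knockout and 5.80, 7.5 and 3.72 in WT. Slfn9 had 22.1, 46.5, 26.8 and 64.1 CPM in knockout LT-HSC and 53.3, 40.4, 15.3 and 47.8 in WT LT-HSC, and 25.9, 9.31, 18.8 and 26.7 in knockout CMP/GMP and 32.1, 23.7, 26.6 and 25.7 in WT CMP/GMP. Its genotypes overlapped in both populations (0.02 ± 0.55 in LT-HSC and -0.42 ± 0.33 in CMP/GMP).

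**Figure D4:**
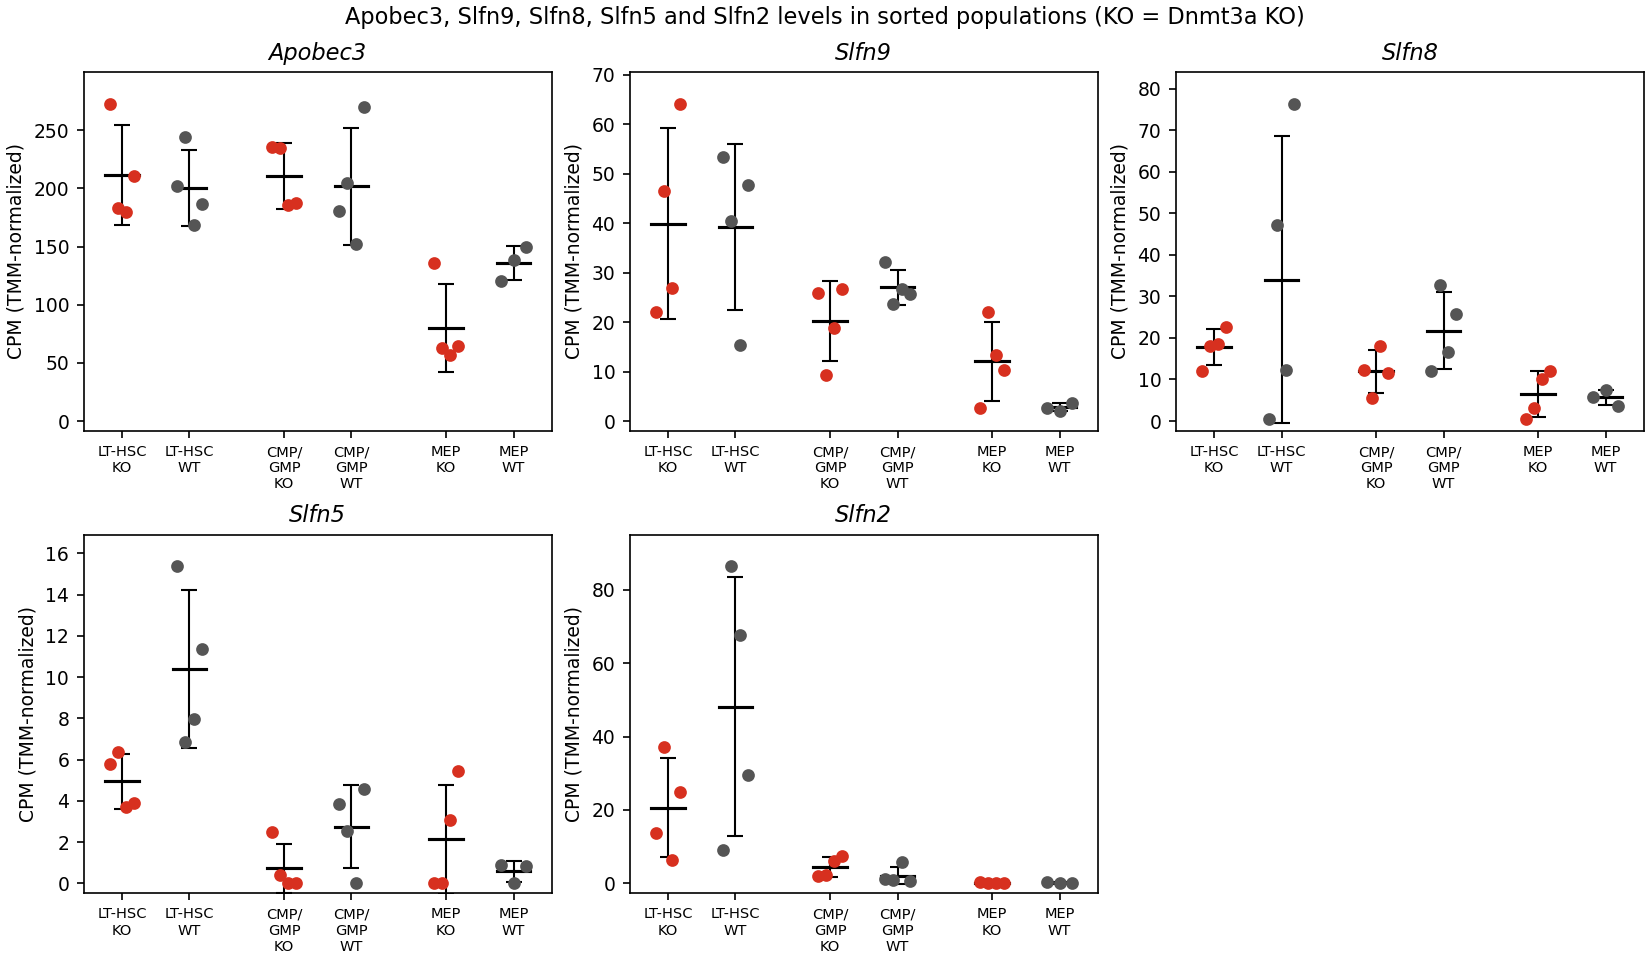
TMM-normalised CPM of Apobec3, Slfn9, Slfn8, Slfn5 and Slfn2 in sorted LT-HSC, CMP/GMP and MEP, Dnmt3a knockout left of WT, with 1 point per library, the group mean and bars of 1 SD (n = 4, and 3 for WT MEP). Knockout and WT overlap in every panel except Slfn5 in LT-HSC, and Slfn2 falls from LT-HSC to MEP.

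By edgeR, 0 of 5 members tested passed in LT-HSC and 0 of 5 in CMP/GMP, beside 0% of all genes in each. An unadjusted p under 0.05 was reached by 0 members in both, against 1.18% of all genes in LT-HSC and 9.06% in CMP/GMP. DESeq2 called 0 in each, beside 0.0547% and 1.2%. In MEP 0 of 4 passed, also beside 0% of all genes, with 0 at an unadjusted p under 0.05 (13% of all genes) and 0 by DESeq2 (4.58%). An edgeR F-test over the 23 sorted libraries asked whether the Dnmt3a effect depended on the population. Of 5 members 0 passed, beside 0.0186% of all genes, with Slfn9 alone at an unadjusted p under 0.05 (adjusted p = 0.377), as were 12% of all genes. Without MEP knockout 1 its adjusted p was 0.0452, in a test that then called 844 genes in place of 3. That test was not run with DESeq2.

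The WT libraries show how the members are distributed over sorted populations. Slfn2 stepped down from stem cells to MEP and Slfn9 was low in MEP, whereas no difference of Apobec3 passed the test. Every WT MEP library (121 to 150 CPM) lay below every WT LT-HSC and CMP/GMP library in Apobec3. CPM values were scaled within each population, however, and the share of all genes divided in that way was not computed. In the joint WT fit LT-HSC exceeded MEP in Apobec3 by 0.28 on the log2 scale. Slfn2 averaged 48.2 ± 35.2 CPM in LT-HSC (n = 4), 2.09 ± 2.42 in CMP/GMP (n = 4) and 0.187 ± 0.0450 in MEP (n = 3). It was higher in LT-HSC than in CMP/GMP by 4.36 ± 0.91 on the log2 scale (edgeR adjusted p = 0.0113) and than in MEP by 7.72 ± 1.23 (0.00168), and higher in CMP/GMP than in MEP by 3.36 ± 1.01 without passing (0.0964). DESeq2 called that last difference (adjusted p = 0.00444), beside 9.79% of all genes.

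Slfn9 averaged 39.2 ± 16.8 CPM in WT LT-HSC, 27.0 ± 3.60 in CMP/GMP and 2.79 ± 0.793 in MEP. LT-HSC exceeded MEP by 3.53 ± 0.53 on the log2 scale (adjusted p = 0.00135) and CMP/GMP exceeded MEP by 3.18 ± 0.52 (0.00509), while LT-HSC and CMP/GMP differed by 0.35 ± 0.43 (0.668). Apobec3 averaged 200 ± 32.5, 202 ± 50.3 and 136 ± 14.7 CPM in LT-HSC, CMP/GMP and MEP. The largest of its differences was 0.47 ± 0.24 for CMP/GMP against MEP (0.360). Slfn5 and Slfn8 declined in the same order of means without passing the main test. For LT-HSC against MEP each passed in 1 of 16 alternatives. Slfn5 did so by DESeq2 (adjusted p = 0.0277), which called 3319 of 14663 genes there. Slfn8 did so by edgeR with a single library left out (adjusted p = 0.0121).

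Against the background, 1 of 5 members passed as higher in LT-HSC than in CMP/GMP, where 4.23% of all genes were called higher. In LT-HSC against MEP 2 of 5 passed as higher, beside 7.17% of all genes. In CMP/GMP against MEP 1 of 5 passed as higher, beside 2.28%. The calls of Slfn2 for LT-HSC against both other populations, and of Slfn9 for both against MEP, held under all 16 alternatives tried for each. Of the restriction list, Trim30a was higher in LT-HSC than in MEP (1.83 ± 0.38, adjusted p = 0.00803) while Cnp (-1.39 ± 0.34) and Hmgb1 (-0.64 ± 0.19) were lower. Hmgb1 was also lower in LT-HSC than in CMP/GMP (-0.78 ± 0.18), and Isg20, an exonuclease, was lower in CMP/GMP than in MEP (-1.98 ± 0.39).

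Slfn1 had 0 reads in all 23 sorted libraries, and 7.88 to 19.4 CPM in c-kit+ cells. A count of 0 allows up to 0.0629 CPM in the deepest of those libraries and 0.872 CPM in the shallowest, a limit that covers counting error only. Slfn4 was at 0 in every sorted group but 3, where a single library held up to 1.83 CPM. Late neutrophil genes followed the same division, with sums of 5601 to 29549 CPM in c-kit+ cells and 0 to 24.2 CPM in sorted cells, and their part in the Slfn1 level was not tested.

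Per kilobase of the longest coding transcript, Apobec3 had the highest group mean of the members in every group. The order rested on WT 2 in c-kit+ WT cells, since WT 1 had 27.8 CPM per kilobase of Slfn2 and 24.3 of Apobec3. In WT c-kit+ cells the order of CPM per kilobase was Apobec3 (24.6), Slfn2 (19.8), Slfn9 (7.98), Slfn1 (7.26), Slfn5 (3.0) and Slfn8 (2.74). Dnmt3a knockout c-kit+ cells gave 81.2 for Apobec3, 35.3 for Slfn2, 16.8 for Slfn9, 8.92 for Slfn8, 6.32 for Slfn1 and 3.08 for Slfn5. In WT LT-HSC the values were 72.5 for Apobec3, 29.0 for Slfn2, 8.50 for Slfn8, 6.79 for Slfn9 and 1.74 for Slfn5. Slfn2 was thus second in WT LT-HSC and in c-kit+ cells of both genotypes. In WT CMP/GMP it ranked lower, with 73.1 for Apobec3, 5.43 for Slfn8, 4.68 for Slfn9, 1.26 for Slfn2 and 0.459 for Slfn5. WT MEP gave 49.3 for Apobec3, 1.41 for Slfn8, 0.483 for Slfn9, 0.112 for Slfn2 and 0.0965 for Slfn5.

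The genes whose pattern over the 32 libraries was most like that of each member were found by Pearson correlation of log2 CPM among 10125 genes, as a description over libraries that share population and depth. Slfn1 was most like Fpr2, a formyl peptide receptor, Cd300lf and Mmp25 (r 0.999 each), all at 0 CPM in every sorted group on average. Slfn2 was most like Nav2 (0.94), Ccpg1 (0.93) and Tcp11l1 (0.92), and Slfn9 like Sptbn1, a spectrin (0.93), Cpne3 (0.90) and Fnbp1 (0.90). Slfn5 was most like Rltpr (0.81), Numa1 (0.81) and Nfat5 (0.80), Slfn8 like Irf5 (0.76), Slc29a3 (0.75) and Mkl1 (0.70), and Apobec3 like Tst (0.74), Extl2 (0.73) and Mob3a (0.73). Apobec3 thus had no gene above 0.74. Over the 9 c-kit+ libraries the members themselves correlated best for Apobec3 with Slfn9 (r 0.85) and Slfn8 with Slfn9 (0.72), values that the choice of Apobec3 and Slfn9 partly sets. Over the 7 MEP libraries Apobec3 and Slfn9 ran against each other (-0.94).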

How the data were processed

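Libraries were made from poly(A) RNA by an adapted SMART-Seq2 chemistry, per the labels' protocols. The deposited gene table holds the authors' raw counts of reads, 1 row to a symbol, and the submitters' processing notes name Trim Galore 0.6.7, HISAT2, featureCounts 2.0.1 and DESeq2 1.34.0, with mm10 as the build. No source used here gives the strand setting or the treatment of multiply mapped reads, so reads of overlapping or near-identical genes can be shared. Of the 40 gene columns, 32 were matched to libraries by name. The other 8 repeat the names of short-term stem cell WT libraries and were not used, so that population is not analysed here.

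Counts were tested with edgeR 4.0.16 (R 4.3.3) by the quasi-likelihood test, with TMM scaling, a low-count filter (filterByExpr, minimum count 10, total 15), Benjamini-Hochberg adjustment over all genes tested and a threshold of 0.05. The 9 c-kit+ libraries were fitted together, each sorted population alone, and the 11 sorted WT libraries together for populations. Standard errors (SE) were taken from the log2 fold change and its F statistic. CPM uses the TMM factors of the library's own fit. DESeq2 1.42.0, RLE size factors, no filter, fits of the compared groups alone, leaving out each library and a replicate block were the alternatives; a term for libraries with over 100 CPM of Xist, leaving out LT-HSC knockout 2 and WT 1 together, and summing near-identical libraries were added after seeing the data. On simulated data the tests recovered the median fold changes but called only part of the changed genes, and few of the smaller changes in LT-HSC and MEP. Deviations of same-numbered libraries were mostly positively correlated between WT populations but not between genotypes, and not every pair exceeded 0.1, so numbers were not treated as pairs. Genes most like a member were the 3 with the highest r of log2 CPM (prior count 2) among genes averaging at least 5 CPM, predicted genes left out. Neighbours were the 3 tested genes nearest on each side. Of the interferon-stimulated list only some of the genes called were named, and the cell type lists were given as sums and counts. Promoters came from RefSeq GRCm38.p6 and transcripts from GENCODE on GRCm38, and all 6 members matched. The members and lists were chosen with earlier results of these data known.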

Additional observations from a re-analysis of the deposited data

Results flagged for a closer look

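Of 25 sets tested, each 1 member in 1 group of 4 libraries, 4 held a library far from the others. Chance alone marks about 1 in 20 such sets if values are normal and independent. These are CPM values that include zeros, and the members share libraries, so that rate is only a guide. Apobec3 stood at 136 CPM in MEP knockout 1, against 57.1 to 64.5 CPM in the other 3 knockout libraries. Slfn2 stood at 0.417 CPM in the same library, with 0 CPM in the other 3. With 3 libraries at 0 any other value meets this rule, and this one rests on 15 reads. In WT CMP/GMP, Slfn2 was at 5.70 CPM in WT 3, against 0.501 to 1.20 CPM in the rest. In knockout CMP/GMP, Slfn5 was at 2.51 CPM in knockout 1, against 0 to 0.383 CPM in the rest.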

How the results depend on the processing

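No tested member passed against WT in c-kit+ cells under the main test, and some passed under alternatives. The number of genes called over the whole table moved as well. For Dnmt3a knockout against WT it was 91, with DESeq2 658, no filter 1219, the compared groups alone 1260, the replicate block 181 and the Xist term 0. For Sting knockout against WT it was 124, with DESeq2 454, no filter 735, the groups alone 286 and the block 187. For DKO against WT it was 202, with DESeq2 928, no filter 1359, the groups alone 69, the block 832 and the Xist term 73. For DKO against Dnmt3a knockout it was 25, with DESeq2 101, no filter 415, the groups alone 1, the block 11 and the Xist term 1. For DKO against Sting knockout it was 0, with DESeq2 126 and no filter 408, and for the interaction 24, with DESeq2 198, no filter 446 and the Xist term 5. DESeq2 called 7 genes in LT-HSC, 158 in CMP/GMP and 565 in MEP where edgeR called 0. It called 2518, 3319 and 1436 in WT LT-HSC against CMP/GMP, LT-HSC against MEP and CMP/GMP against MEP, where edgeR called 1281, 1934 and 509. The F-test over populations called 3, with RLE factors 1, no filter 8 and the block 0. The cause of these shifts was not tested. In c-kit+ cells the Xist term rests on DKO 1 against DKO 2 and 3.

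Leaving out each library in turn gave 6 to 289 calls for Dnmt3a knockout against WT, 17 to 337 for Sting knockout, 10 to 946 for DKO, 1 to 74 for DKO against Dnmt3a knockout, 0 to 16 for DKO against Sting knockout and 2 to 128 for the interaction. It gave 0 to 12 in CMP/GMP, 0 to 2882 in MEP, 513 to 2121, 891 to 2765 and 179 to 1096 for the WT populations in the order above, and 0 to 844 for the F-test.

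Some uncalled members changed sign on the log2 scale. With the Xist term Slfn1 was at 0.26 (Dnmt3a knockout against WT), 0.060 (DKO against Sting knockout) and -0.20 (interaction), Slfn5 at -0.59 (Dnmt3a knockout against WT), 0.042 (interaction) and -0.068 (MEP), Slfn2 at -0.10 (DKO against Dnmt3a knockout) and Slfn8 at -0.17 (MEP). Slfn8 was at -0.14 in MEP with near-identical libraries summed. With the replicate block Slfn8 was at 0.14 in LT-HSC, -0.23 in MEP and -0.11 in WT LT-HSC against CMP/GMP, and Slfn5 passed in DKO against WT (-1.68, adjusted p = 0.0200). Deviations of same-numbered libraries correlated at -0.30 to 0.18 between genotypes, with 6 of 23 pairs over 0.1, and at -0.090 to 0.24 between WT populations, with 6 of 10. High Xist also went with numbers 3 and 4 in sorted cells, except in CMP/GMP WT 4. The block changed no member's call between WT populations.

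Without single libraries the ranges that crossed 0 were, for Slfn1, -0.70 to 0.57 (Dnmt3a knockout against WT), -0.12 to 1.15 (Sting knockout), -0.20 to 1.08 (DKO), -0.22 to 0.082 (DKO against Sting knockout) and -0.64 to 0.63 (interaction). For Slfn2 they were -0.13 to 0.24 (DKO against Dnmt3a knockout) and -1.22 to 0.015 (interaction), and for Slfn5 -0.13 to 0.17 (Dnmt3a knockout against WT), -0.70 to 0.24 (DKO against Sting knockout) and -0.73 to 0.20 (interaction). For Slfn8 they were -0.50 to 2.09 (Sting knockout), -0.69 to 1.91 (DKO), -0.29 to 0.57 (MEP) and -0.26 to 0.87 (WT LT-HSC against CMP/GMP). For Slfn9 they were -0.23 to 0.045 (DKO against Sting knockout) and -0.31 to 0.23 (LT-HSC), and for Apobec3 -0.067 to 0.19 (LT-HSC), -0.039 to 0.23 (CMP/GMP) and -0.31 to 0.028 (WT LT-HSC against CMP/GMP). Groups of 2 libraries and the 3.44 M reads of MEP knockout 2 limit the precision.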
